A study of Mus musculus with 2 samples.

Results

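The genes described here are 9 glycolysis enzymes or enzyme subunits and 1 glucose transporter: Slc2a1, Hk2, Pfkp, Aldoa, Tpi1, Pgk1, Pgam1, Eno1, Pkm and Ldha. They were taken by symbol from the deposited count table, and all 10 were among its 11971 genes. The cells were T cells of the colon from 12 Rag-deficient mice, which lack mature host T and B cells but still have NK and other innate lymphocytes. KO-labelled mice (n = 6) had received BCL-6-deficient CD4 T cells. WT-labelled mice (n = 6) had received T cells without that deficiency, given in the labels as naïve or as positive for CD4, high for CD45RB and negative for CD25. This transfer is used to induce colitis. How BCL-6 was removed and the age of the mice are not given in the sources used here.

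Glycolysis splits glucose into pyruvate in the cytosol, and lactate dehydrogenase can turn that pyruvate into lactate. Activated and inflammatory T cells rely on it heavily, and hypoxia-inducible factor, MYC and mTORC1 drive its genes. BCL6 is a transcriptional repressor, and in cultured Th1 cells it is known to hold down genes of this pathway.

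Cells were sorted as TCRb+CD4+, each mouse was marked by its own hashtag, and all mice were read in 1 library made with 5′ chemistry, so no library separates the genotypes. The table held 57634998 UMIs (unique molecular identifiers, each counting 1 captured transcript) in 18860 cells, with 9708 cells in KO-labelled mice and 9152 in WT-labelled mice, and no barcode was repeated. Mice had 4252124 to 5523025 UMIs from 1409 to 1736 cells. The authors' annotation gave 5 named clusters (recirculating, cytotoxic, Th17, cycling and regulatory) and clusters 1 and 3 with a general CD4 label, called unnamed 1 and unnamed 3 here. Unnamed 1 made up a mean of 32.6% of the cells of KO-labelled mice, against 8.37% for WT-labelled mice, and unnamed 3 a mean of 23.1% for KO-labelled mice, against 7.55% for WT-labelled mice. KO-labelled mice 1 and 2 stood apart in having 8.86% and 6.83% recirculating cells. KO-labelled mouse 6 stood apart the other way, with 40.0% recirculating, 16.5% unnamed 1 and 10.8% Th17 cells. The other KO-labelled mice had at most 25.4% recirculating, 31.3 to 41.6% unnamed 1 and 2.68 to 6.60% Th17 cells. Bcl6 itself was higher in KO-labelled mice, at 65.9 to 91.3 CPM (a gene's UMIs scaled to the same total in each mouse), against 48.4 to 69.7 CPM in WT-labelled mice, a log2 fold change of 0.49 ± 0.10 (SE, adjusted p = 0.00398, edgeR). In cycling cells it averaged 88.3 CPM in KO-labelled mice, against 30.7 CPM in WT-labelled mice (adjusted p = 6.5e-05), and in Th17 cells its log2 fold change was 1.08 (adjusted p = 1.7e-04). It was also called higher in recirculating and unnamed 1 cells, and was not called in cytotoxic or unnamed 3 cells. The deletion is not described in the sources used here, so this gene does not check the labels, and every direction below rests on them. The median share of mitochondrial UMIs per cell was 0.81 to 0.83% in KO-labelled mice, against 0.85 to 0.935% in WT-labelled mice, with no overlap, and its part in the results was not tested. Depth per cell differed too, with median UMIs of 2381 to 2997 in KO-labelled mice, against 2864 to 3102.5 in WT-labelled mice. KO-labelled mice 6 (2997) and 4 (2848) were the deepest of their group, and only mouse 6 reached the WT range. In every cluster the mean depth was lower in KO-labelled mice. The part of this depth gap in the genotype differences was not tested. The summed T cell markers (6 of 6 in the table) lay between 3900 and 4776 CPM in KO-labelled and between 3715 and 4271 CPM in WT-labelled mice.

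Promoter sequence is shown for Hk2, the 1 gene that rose in KO-labelled mice, and for Tpi1 and Pgk1, which fell with the smallest p-values. These 3 were chosen after their values were seen. Each is the stretch just before the first annotated base in RefSeq and GENCODE, on GRCm38.p6 and read 5′ to 3′ on the gene's strand. Hk2 is at chr6:82774455-82774704 (minus strand), Tpi1 at chr6:124814297-124814408 (minus strand) and Pgk1 at chrX:106186850-106187099 (plus strand). Capitals mark ACGTG, the core of the hypoxia response element, on either strand.
Hk2: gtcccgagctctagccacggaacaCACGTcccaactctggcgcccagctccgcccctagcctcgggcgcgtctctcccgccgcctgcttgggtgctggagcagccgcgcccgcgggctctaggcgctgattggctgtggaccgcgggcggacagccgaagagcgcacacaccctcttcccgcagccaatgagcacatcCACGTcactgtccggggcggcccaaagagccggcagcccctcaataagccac
Tpi1: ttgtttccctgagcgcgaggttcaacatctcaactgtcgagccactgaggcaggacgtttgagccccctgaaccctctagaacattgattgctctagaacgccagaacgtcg
Pgk1: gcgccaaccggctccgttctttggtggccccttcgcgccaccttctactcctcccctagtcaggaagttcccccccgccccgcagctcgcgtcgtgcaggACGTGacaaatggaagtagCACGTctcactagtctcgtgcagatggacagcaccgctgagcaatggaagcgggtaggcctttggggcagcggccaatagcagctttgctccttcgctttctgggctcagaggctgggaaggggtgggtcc

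The Hk2 and Pgk1 stretches hold 2 copies each, and the Tpi1 stretch holds 0. Over the RefSeq promoter windows of all 10 genes, ACGTG was found in 7 genes, against 21.8% of all 27025 genes with a window. GCGTG was found in 5 of the 10, against 35.2% of genes, and both strands were searched. A gene counted if any of its windows matched, which favours genes with more windows. Aldoa and Eno1 had 3 windows each and Pkm and Ldha 2 each, while all 27025 genes had 32851 windows. The MYC E-box CACGTG, which contains ACGTG, was found in 1 gene (Ldha), against 8.09% of genes. TTCNNNGAA, a spaced palindrome of the kind that BCL6 and STAT factors bind, was found in 0 of the 10, against 9.55% of genes. Such matches describe letters in a window and are not binding sites.

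Over all cells, 1 of the 10 genes rose in KO-labelled mice and 4 fell. Hk2, a hexokinase that phosphorylates glucose in the first step, rose, while Tpi1, Pgk1, Pfkp and Pgam1 fell. Genes were called at an adjusted p under 0.05 in edgeR's quasi-likelihood test on UMIs summed per mouse. By that rule 7.04% of the 9861 genes tested were higher and 7.21% were lower in KO-labelled mice. The median log2 fold change of the 10 genes was -0.16, against 0.0 over all genes tested, and 9 of the 10 were below 0. The CPM ranges of the groups overlapped for every one of the 10 genes. In sums over all cells, a change in the makeup of the cells and a change in RNA per cell cannot be told apart.

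Hk2 lies at chr6:82725025-82774454 on the minus strand (GRCm38). Its level was 62.5, 48.5, 38.3, 35.2, 35.9 and 26.3 CPM in KO-labelled mice 1 to 6, against 23.5, 22.6, 17.1, 24.4, 16.4 and 32.1 CPM in WT-labelled mice 7 to 12. Every KO-labelled mouse but 6 was above every WT-labelled mouse, and mice 1 and 2 were the highest. Hk2 had a log2 fold change of 0.81 ± 0.19 (SE, adjusted p = 0.00986, edgeR, n = 6 each). Without KO-labelled mice 1 and 2 it was 0.53 with an adjusted p of 0.0603, the highest of its 19 alternatives, which ranged down to 7.2e-04.

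Tpi1, triosephosphate isomerase, interconverts the 2 products of aldolase and lies at chr6:124810586-124814296. It measured 87.1, 63.7, 89.1, 108.6, 88.6 and 121.1 CPM in KO-labelled mice, against 121.2, 120.0, 113.3, 159.1, 150.9 and 138.9 CPM in WT-labelled mice. Only KO-labelled mouse 6 reached into the WT range. Its log2 fold change came to -0.56 ± 0.12 (SE, adjusted p = 0.00637, edgeR), and it passed in all 19 alternatives tried.

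The other 3 falls were smaller. Pgk1, phosphoglycerate kinase, which makes the first ATP of the pathway, ranged from 211.4 to 276.2 CPM (median 241.9) in KO-labelled mice, against 270.0 to 322.6 CPM (median 279.2) in WT-labelled mice. Only KO-labelled mouse 4 reached into the WT range. Pgk1 had a log2 fold change of -0.27 ± 0.07 (SE, adjusted p = 0.0146, edgeR). Pfkp, the platelet-type phosphofructokinase of the committed step, spanned 113.6 to 161.5 CPM (median 138.3) in KO-labelled mice, against 156.2 to 166.8 CPM (median 163.8) in WT-labelled mice. The WT-labelled mice lay close together and only KO-labelled mouse 6 reached their range. Pfkp had a log2 fold change of -0.27 ± 0.07 (SE, adjusted p = 0.0148, edgeR). Pgam1, phosphoglycerate mutase, lay between 80.2 and 120.3 CPM (median 97.1) in KO-labelled mice, against 104.7 to 141.0 CPM (median 115.7) in WT-labelled mice. Again KO-labelled mouse 4 alone reached the WT range. Its log2 fold change was -0.31 ± 0.09 (SE, adjusted p = 0.0309, edgeR), and the call was lost when a single mouse was left out, for KO-labelled mice 1, 2 and 3 and for WT-labelled mice 10 and 11, with adjusted p-values of 0.0565 to 0.075.

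Without KO-labelled mice 1 and 2 together, only Tpi1 was still called over all cells, and Pgk1, Pfkp and Pgam1 had adjusted p-values of 0.0803, 0.0639 and 0.162. Of all genes tested, 7.69% were called in either direction without those 2 mice, against 14.2% with all mice. Tpi1 then had a log2 fold change of -0.43, Pgk1 -0.20, Pfkp -0.18 and Pgam1 -0.22. In another alternative each cluster was weighted by its share of the cells of all mice, so that every mouse had the same makeup. Hk2 then had a log2 fold change of 0.64 (adjusted p = 0.00664, edgeR), and Tpi1 had -0.48 (adjusted p = 0.00291). Pgk1 and Pgam1 also passed there, and Pfkp had -0.22 (adjusted p = 0.0521). Calls over all genes were fewer in that fit, with 437 higher and 520 lower of 9879 tested. In the main fit they were 694 and 711 of 9861.

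The other 5 genes did not pass the test. Slc2a1, the glucose transporter GLUT1, averaged 62.2 ± 5.46 CPM in KO-labelled and 61.8 ± 6.92 CPM in WT-labelled mice (SD, n = 6 each). Its log2 fold change of -0.03 ± 0.08 (SE) had an adjusted p of 0.841 (edgeR). Aldoa, the aldolase that splits the 6-carbon sugar, averaged 823 ± 57.5 CPM in KO-labelled and 830 ± 69.9 CPM in WT-labelled mice, with a log2 fold change of -0.05. Eno1, enolase, averaged 267 ± 33.8 CPM in KO-labelled and 282 ± 18.2 CPM in WT-labelled mice, with a log2 fold change of -0.12. Pkm, pyruvate kinase, and Ldha, which makes lactate, both had a log2 fold change of -0.16, with adjusted p-values of 0.0854 and 0.124 (edgeR). Leaving out KO-labelled mouse 6 brought both past the threshold, at adjusted p-values of 0.0184 for Pkm and 0.0162 for Ldha (edgeR). Calls over all genes rose as well in that refit, to 938 higher and 929 lower of 9929 tested, against 694 and 711 of 9861 with all mice. The M1 and M2 splice forms of Pkm are not separated in these counts. Eno1 shares near-identical sequence with Eno1b, so reads could be split between 15884 Eno1 and 1827 Eno1b UMIs, and the symbol Aldoa names a second row with 20 UMIs.

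**Figure D1:**
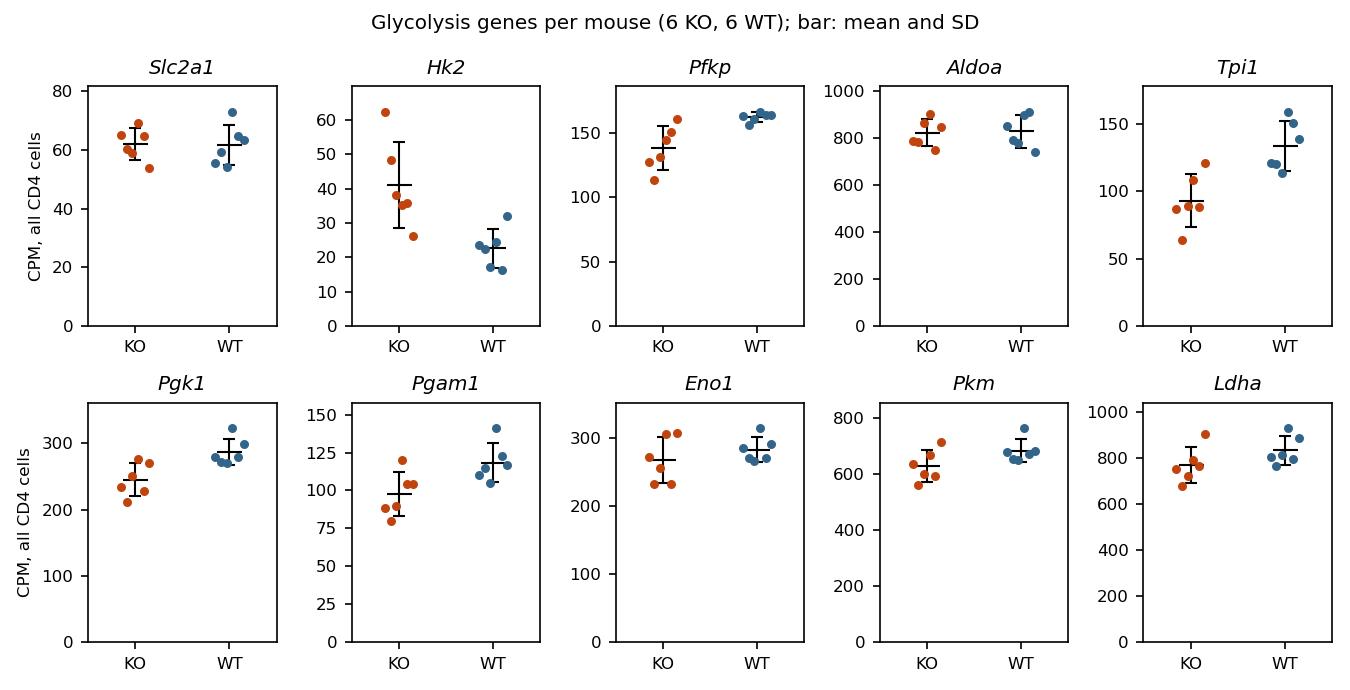
Level of each of the 10 genes in CPM over all CD4 cells of a mouse, with 1 point per mouse, KO-labelled mice on the left and WT-labelled mice on the right of each panel (n = 6 each), and the mean and SD as bars. Hk2 sits higher in KO-labelled mice and Tpi1 lower, while Slc2a1 and Aldoa lie at like levels in both.

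Deviations from the genotype mean went together for most pairs of genes over the 12 mice. Of 45 pairs, 36 had a Pearson correlation above 0 and the median was 0.55, with all genes of a mouse sharing its depth and cell makeup. Hk2 stood apart, with negative correlations with 8 genes, from -0.11 with Eno1 to -0.58 with Pfkp.

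The genotypes were compared within each cluster next. Hk2 rose in recirculating and Th17 cells, Tpi1 fell in recirculating, unnamed 1 and unnamed 3 cells, Pgam1 fell in unnamed 1 cells, Pfkp fell in cytotoxic cells, and Ldha fell in unnamed 3 cells. None of the 10 genes was called in cycling or regulatory cells. Mice with at least 20 cells in a cluster entered, which was all 12 mice except in regulatory cells (5 KO-labelled and 3 WT-labelled mice).

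In recirculating cells, 1 gene rose and 1 fell, where 2.17% of genes were called higher and 3.3% lower. Hk2 was 52.9, 21.3, 29.4, 22.4, 21.2 and 16.7 CPM in KO-labelled mice, against 13.8, 13.6, 12.5, 14.95, 11.03 and 16.2 CPM in WT-labelled mice, and the groups did not overlap. Mouse 1 was far above the other KO-labelled mice. For Hk2 this was a log2 fold change of 0.78 ± 0.22 (SE, adjusted p = 0.0305, edgeR), and 9 of 16 alternatives kept the call, with adjusted p-values from 0.00517 to 0.0905. Tpi1 averaged 85.6 ± 16.2 CPM in KO-labelled and 111.4 ± 13.7 CPM in WT-labelled mice (SD), with a log2 fold change of -0.38 ± 0.11 (SE, adjusted p = 0.0316, edgeR), called in 7 of 16 alternatives.

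In Th17 cells, Hk2 was the 1 gene called higher, where 2.52% of genes were. It measured 112.1, 188.2, 90.4, 87.4, 88.9 and 56.2 CPM in KO-labelled mice, against 43.4, 45.7, 22.6, 44.1, 47.4 and 59.0 CPM in WT-labelled mice. KO-labelled mouse 6 was the only one of its group below the highest WT-labelled mouse. In Th17 cells this gave a log2 fold change of 1.02 ± 0.23 (SE, adjusted p = 0.00792, edgeR), and without KO-labelled mice 1 and 2 it was 0.73 (adjusted p = 0.0808, the highest of 17 alternatives, of which the lowest was 5.9e-04). The other 9 genes had log2 fold changes from -0.24 (Tpi1) to 0.12 (Aldoa) there. KO-labelled mice had 44 to 178 Th17 cells each, against 137 to 391 in WT-labelled mice.

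In unnamed 1 cells, 2 genes fell, where 2.9% of genes were called lower. Tpi1 was 84.4, 56.1, 75.4, 96.7, 81.6 and 110.3 CPM in KO-labelled mice, against 172.8, 91.0, 142.2, 136.0, 167.3 and 106.8 CPM in WT-labelled mice. The ranges overlapped through KO-labelled mice 4 and 6 and WT-labelled mice 8 and 12. Tpi1 fell there with a log2 fold change of -0.78 ± 0.16 (SE, adjusted p = 0.00332, edgeR) and passed in all 16 alternatives. Pgam1 ranged from 80.6 to 128.0 CPM in KO-labelled mice, against 122.6 to 150.2 CPM in WT-labelled mice, with a log2 fold change of -0.52 ± 0.12 (SE, adjusted p = 0.0107, edgeR). Its adjusted p was 0.0873 without KO-labelled mice 1 and 2, against 0.00453 in the alternative with the lowest. Hk2 had a log2 fold change of 0.41 ± 0.19 (SE, adjusted p = 0.273, edgeR), which did not pass.

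In unnamed 3 cells, 2 genes fell, where 5.33% of genes were called lower. Ldha was 549.1, 544.7, 550.4, 540.2, 594.2 and 586.7 CPM in KO-labelled mice, against 690.8, 640.4, 643.9, 646.2, 660.6 and 754.1 CPM in WT-labelled mice. Every KO-labelled mouse was below every WT-labelled mouse. Ldha fell there with a log2 fold change of -0.34 ± 0.07 (SE, adjusted p = 0.00232, edgeR), and it passed in all 16 alternatives. Tpi1 averaged 47.9 ± 12.3 CPM in KO-labelled and 74.9 ± 25.2 CPM in WT-labelled mice (SD), with a log2 fold change of -0.71 ± 0.19 (SE, adjusted p = 0.014, edgeR). Its call was lost without WT-labelled mouse 8 or 11 (adjusted p = 0.0824 and 0.0607) and without KO-labelled mice 1 and 2 (0.0779), and the lowest of its 16 alternatives was 0.00814.

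In cytotoxic cells, 1 gene fell, where 1.58% of genes were called lower. Pfkp was 80.2, 113.6, 130.9, 134.0, 139.8 and 115.8 CPM in KO-labelled mice, against 186.8, 168.4, 151.9, 162.8, 167.6 and 138.6 CPM in WT-labelled mice. KO-labelled mouse 5 lay just above WT-labelled mouse 12, and the other KO-labelled mice were below all WT-labelled mice. Pfkp fell there with a log2 fold change of -0.45 ± 0.11 (SE, adjusted p = 0.0206, edgeR), called in 12 of 16 alternatives, with adjusted p-values from 0.00718 to 0.0875. The call was lost without KO-labelled mouse 1, KO-labelled mouse 6 or WT-labelled mouse 7. Hk2 had too few UMIs to be tested in cytotoxic and unnamed 3 cells.

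In cycling cells, edgeR and DESeq2 each called 0 of the 10 genes, where edgeR called 5.36% of genes in either direction. Without adjustment, 3 genes passed a p of 0.05 by edgeR and 2 by DESeq2, and the share of all genes at that looser cut was not counted. Tpi1 came closest, at 169 ± 28.1 CPM in KO-labelled and 218 ± 42.9 CPM in WT-labelled mice (SD), with a log2 fold change of -0.43 ± 0.13 (SE, adjusted p = 0.0524, edgeR). In regulatory cells both tools called 0 of the 8 genes tested, where edgeR called 0.513% of genes by adjusted p. Unadjusted, 1 gene passed by either tool, with no share of all genes counted at that cut. That gene, Pfkp, was 195.0, 190.8, 227.7, 227.5 and 170.8 CPM in KO-labelled mice 1, 2, 4, 5 and 6, against 87.7, 112.1 and 115.6 CPM in WT-labelled mice 7, 10 and 12. The groups did not overlap, and the log2 fold change of 0.88 ± 0.27 (SE) had an adjusted p of 0.251 (edgeR). Those WT values rest on 8, 8 and 12 UMIs. Aldoa did not overlap there either, at 939.5 to 1047 CPM in KO-labelled mice, against 809.4 to 844.5 CPM in WT-labelled mice (adjusted p = 0.552, edgeR). The share of all genes without overlap among so few mice was not counted. Slc2a1 and Hk2 were not tested there.

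**Figure D2:**
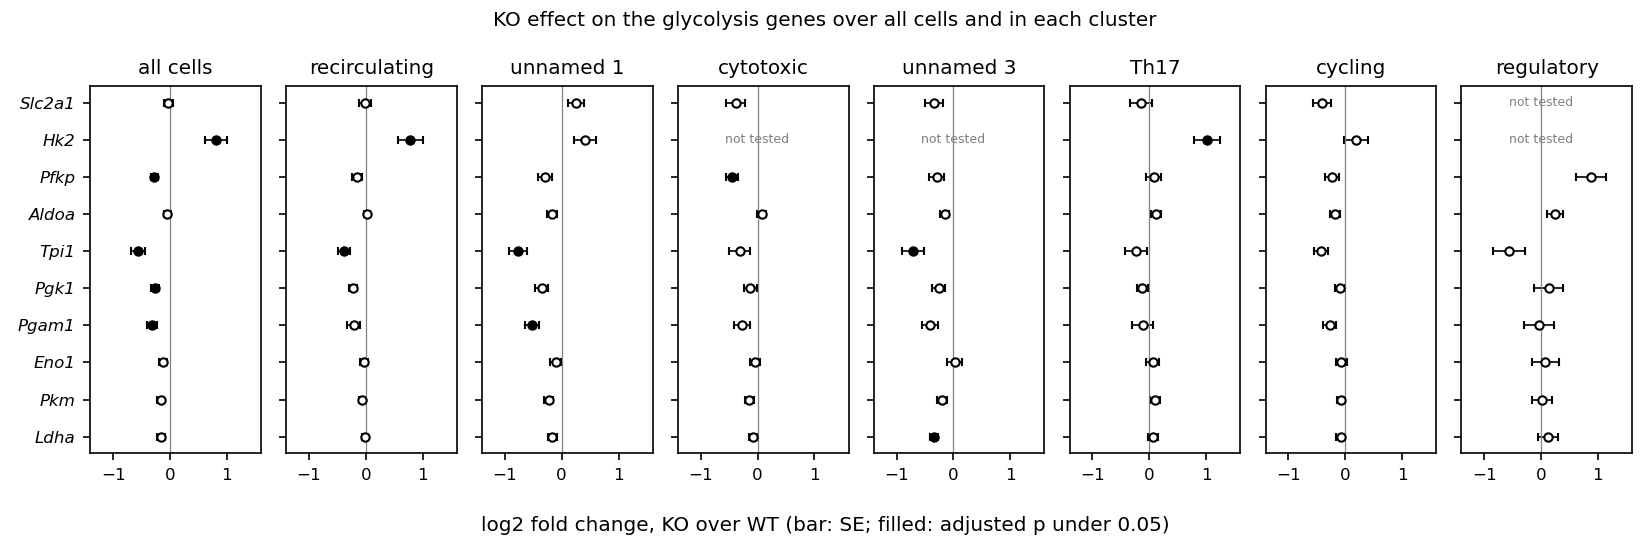
Log2 fold change of KO-labelled over WT-labelled mice for each of the 10 genes, over all cells and within each cluster. Bars are standard errors and filled points passed an adjusted p under 0.05 in edgeR. Tpi1 is below 0 in all 8 panels, and Hk2 is above 0 in every panel where it was tested.

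**Figure D3:**
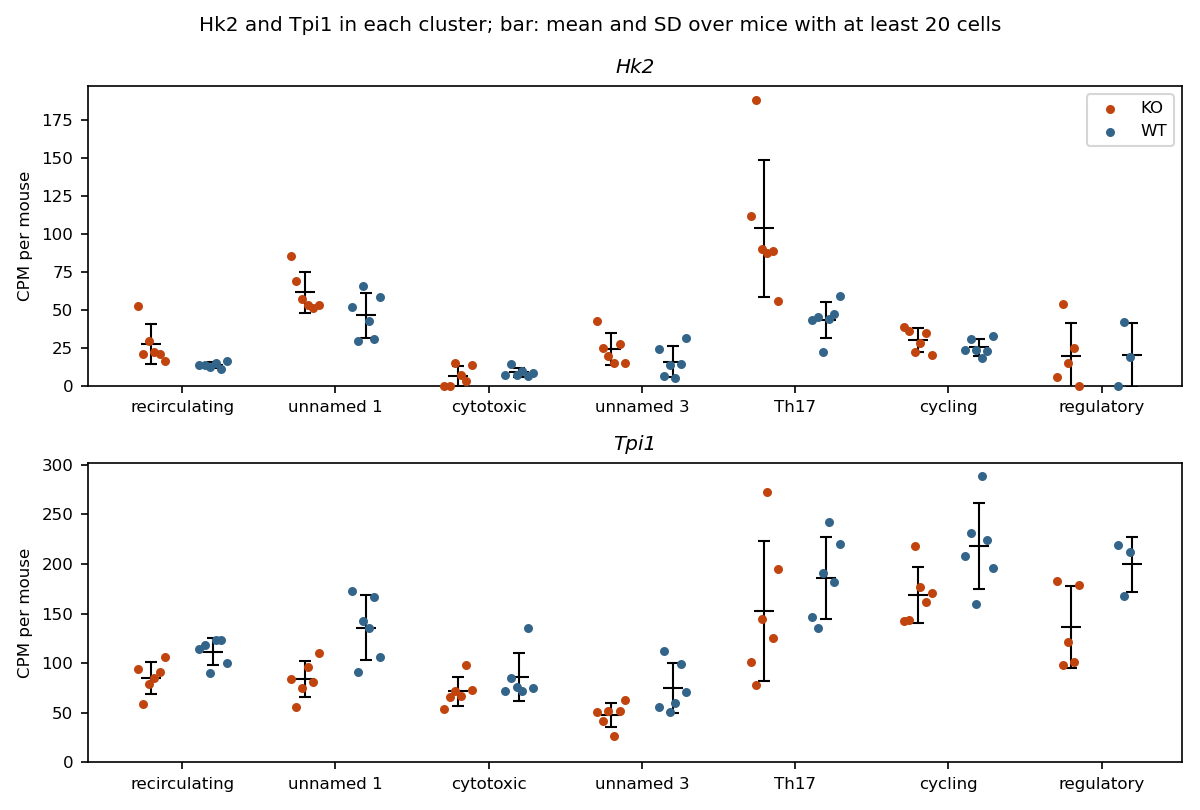
CPM of Hk2 and Tpi1 per mouse in each cluster, KO-labelled mice left of WT-labelled mice, with mean and SD over mice that had at least 20 cells. Hk2 is highest in KO-labelled Th17 cells (mean 103.9 CPM), and Tpi1 is highest in cycling cells of both genotypes.

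A call in one cluster and not in another does not show that the clusters differ, so the difference itself was tested over the 6 clusters in which every mouse had at least 20 cells. None of the 10 genes passed in limma's moderated F test at an adjusted p under 0.05, where 6.51% of 7485 genes did. Without adjustment 5 of the 10 passed a p of 0.05, and the share of all genes at that looser cut was not counted. Ldha came closest (adjusted p = 0.0527), followed by Pkm (0.068) and Slc2a1 (0.0899). Hk2 had 0.344 and Tpi1 0.454. With another filter on low counts, chosen after this result was seen, Ldha had an adjusted p of 0.0432, where 8.58% of 4706 genes were called, and over the 4 alternatives its values ran from 0.0432 to 0.216. edgeR called 0 of the 10 by adjusted p, where it called 0.949% of all genes. It had 3 of the 10 unadjusted, again without a count of all genes at that cut.

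The authors' clusters were made from these cells' genes, so the levels across clusters are a description with no test. The summed CPM of the 10 genes, in which genes with more UMIs weigh more, was highest in Th17 cells, at 4378 ± 518 CPM in KO-labelled and 4127 ± 381 CPM in WT-labelled mice (SD). It was lowest in unnamed 3 cells, at 2317 ± 87.6 CPM in KO-labelled and 2589 ± 196 CPM in WT-labelled mice. In KO-labelled mice the order from the highest was Th17, regulatory, cycling, recirculating, unnamed 1, cytotoxic and unnamed 3. In that order the ranges of cycling and recirculating cells, and those of cytotoxic and unnamed 3 cells, did not overlap, and all other neighbours did. In WT-labelled mice the order was Th17, cycling, regulatory, recirculating, unnamed 1, cytotoxic and unnamed 3, and the ranges of all neighbours overlapped.

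Hk2 had the widest spread over clusters among the 10 genes. In KO-labelled mice its mean was 103.9 ± 45.0 CPM in Th17, 61.7 ± 13.3 in unnamed 1, 30.3 ± 7.65 in cycling, 27.3 ± 13.2 in recirculating, 24.3 ± 10.3 in unnamed 3, 20.04 ± 21.2 in regulatory and 6.44 ± 6.59 in cytotoxic cells (SD). The ranges of unnamed 1 and cycling cells did not overlap, and those of all other neighbours did. In WT-labelled mice its mean was 46.6 ± 14.8 CPM in unnamed 1, 43.7 ± 11.8 in Th17, 25.3 ± 5.4 in cycling, 20.4 ± 21.1 in regulatory, 16.0 ± 10.2 in unnamed 3, 13.7 ± 1.81 in recirculating and 9.06 ± 2.98 in cytotoxic cells. All neighbours overlapped in range there. For KO-labelled mice the highest cluster mean was 16.1-fold the lowest, and for WT-labelled mice it was 5.15-fold. Both folds divide by the cytotoxic mean, where Hk2 was near the counting floor. The KO cytotoxic mean rests on 17 UMIs, with 0 UMIs from KO-labelled mice 1 and 2, so the 16.1-fold is imprecise. The WT cytotoxic mean rests on 71 UMIs. The regulatory means rest on 15 UMIs (KO) and 5 UMIs (WT).

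Slc2a1 varied least over clusters in KO-labelled mice, where its highest mean, 75.8 CPM in regulatory cells, was 1.45-fold its lowest, 52.3 CPM in cycling cells. In WT-labelled mice its means ran from 53.6 CPM in recirculating to 75.1 CPM in unnamed 3 cells, and in both genotypes all neighbours overlapped. Aldoa was the 1 gene with its lowest KO mean in cycling cells besides Slc2a1, at 651 ± 70.8 CPM, against 706 ± 101 CPM in cycling cells of WT-labelled mice.

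The later enzymes shared one order more closely. Tpi1 was highest in cycling cells, at 169 CPM in KO-labelled and 218 CPM in WT-labelled mice, and lowest in unnamed 3 cells, at 47.9 CPM in KO-labelled and 74.9 CPM in WT-labelled mice. Pgk1, Pgam1, Eno1 and Pkm were also lowest in unnamed 3 cells in both genotypes. Pkm ran from 434 ± 17.9 CPM in unnamed 3 to 958 ± 45.8 CPM in cycling cells of KO-labelled mice, and from 472 ± 46.1 to 977 ± 83.7 CPM in the same clusters of WT-labelled mice. Ldha was lowest in unnamed 3 cells of KO-labelled mice (561 CPM) and in cytotoxic cells of WT-labelled mice (595 CPM). Over the 14 means of cluster and genotype, the correlation with the sum of the other 9 genes was 0.94 for Eno1, 0.93 for Pkm, 0.89 for Ldha, 0.88 for Pgk1 and 0.87 for Tpi1. It was 0.85 for Pgam1, 0.61 for Pfkp, 0.39 for Hk2, 0.29 for Aldoa and -0.23 for Slc2a1. These points share mice and 1 library, and clusters differed in depth, from a mean of 2165 median UMIs per cell in unnamed 3 to 4803 in cycling cells of KO-labelled mice, and from 2339 to 5581 in the same clusters of WT-labelled mice. The part of depth in these levels was not tested.

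**Figure D4:**
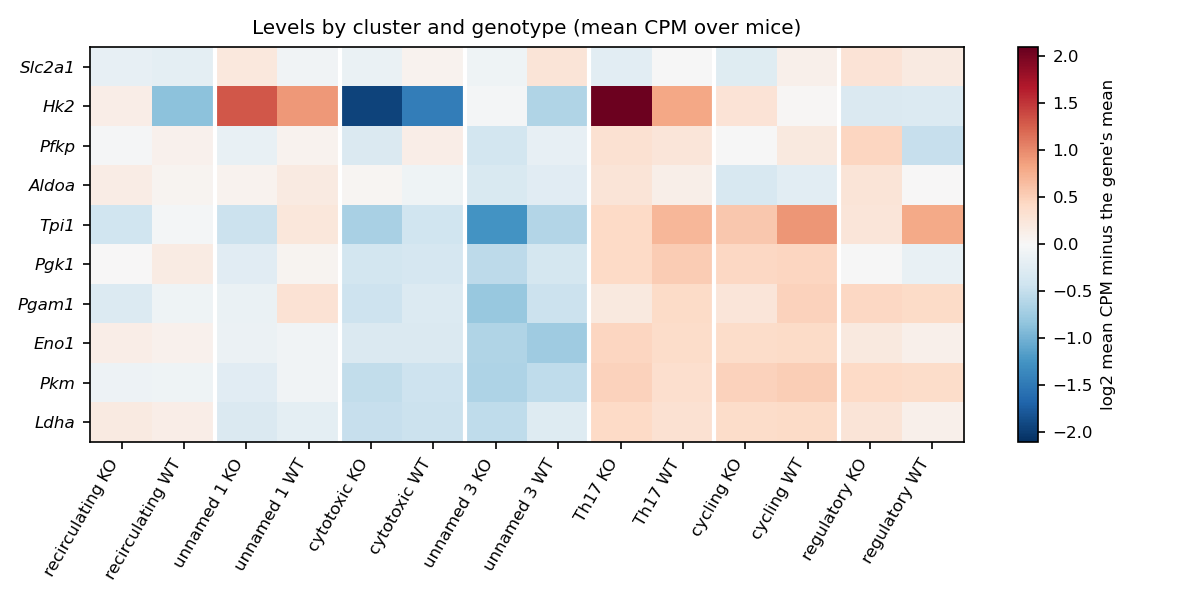
Mean CPM of each gene by cluster and genotype, as log2 minus that gene's mean over the 14 columns, with KO left of WT in each cluster. Rows from Tpi1 to Ldha are high in Th17 and cycling cells and low in unnamed 3 cells, Hk2 has the strongest contrasts, and Slc2a1 and Aldoa follow another order.

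Outside the 10 genes and the lists given next, the genes whose levels followed the sum most closely over those 14 means were Dnajb11, Ostc, Atp5d, Sem1, Arf5 and Ndufa1. Their correlations ran from 0.94 for Dnajb11 to 0.88 for Ndufa1, out of 3820 genes compared.

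Related genes were counted from lists. Over all cells 7.04% of the 9861 genes tested were higher and 7.21% lower in KO-labelled mice. In lists this short, the 0 or 1 call per direction given below over all cells lies near that share. Of 9 other glycolysis genes tested over all cells, 1 rose and 1 fell, with a median log2 fold change of -0.04. Gapdh, the enzyme between Tpi1 and Pgk1, fell to 3420 ± 189 CPM in KO-labelled mice, against 3750 ± 167 CPM in WT-labelled mice, with a log2 fold change of -0.17 (adjusted p = 0.0119, edgeR). Slc2a3, the glucose transporter GLUT3, rose to 46.1 ± 2.90 CPM in KO-labelled mice, against 38.6 ± 3.55 CPM in WT-labelled mice (adjusted p = 0.0431, edgeR). It was also called higher in unnamed 3 cells, where 131 of 4242 genes were. Of 11 regulators and lactate exporters tested, 1 rose and 0 fell: Txnip, which restrains glucose uptake, had a log2 fold change of 0.46 ± 0.13 (SE, adjusted p = 0.0267, edgeR). Txnip also rose in unnamed 1, unnamed 3, Th17 and cycling cells, by 0.45 to 0.53 on the log2 scale, and fell by 1.48 in regulatory cells. With each mouse left out in turn, Txnip kept its call in 7 of 12 refits over all cells, in 4 of 12 in unnamed 1, 5 of 12 in unnamed 3, 6 of 12 in Th17 and 6 of 12 in cycling cells. All 4 clusters lost it without KO-labelled mouse 1 or 2 or WT-labelled mouse 9 or 12, and each also without other mice. Over all cells the call was lost without KO-labelled mouse 1, 2 or 5 or WT-labelled mouse 9 or 12, with adjusted p-values up to 0.0671. In regulatory cells, with 5 KO-labelled and 3 WT-labelled mice, 2 of 8 refits kept it, and leaving out KO-labelled mouse 1, 2, 4 or 6 or WT-labelled mouse 10 or 12 lost it (adjusted p up to 0.264). Over all cells Gapdh kept its call in 12 of 12 refits. Slc2a3 kept it in 3 of 12, those without KO-labelled mouse 3 or 6 or WT-labelled mouse 11, and its adjusted p reached 0.0893.

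Of 11 genes for hypoxia-inducible factor and its targets outside glycolysis tested over all cells, 0 rose and 1 fell. Their median log2 fold change was -0.15. The gene that fell was Hif1a, which encodes the oxygen-regulated subunit of the factor. Hif1a averaged 605 ± 82.7 CPM in KO-labelled and 720 ± 77.7 CPM in WT-labelled mice (SD), a log2 fold change of -0.29 ± 0.09 (SE, adjusted p = 0.0377, edgeR). It also fell in recirculating, unnamed 1, cytotoxic, unnamed 3 and Th17 cells, with log2 fold changes from -0.53 in unnamed 3 to -0.37 in Th17 cells. With each mouse left out in turn, Hif1a kept its call in 5 of 12 refits over all cells, 7 of 12 in Th17 cells and 12 of 12 in each of the other 4 clusters. It was lost over all cells without KO-labelled mouse 1, 2 or 5 or WT-labelled mouse 7, 8, 10 or 12, and in Th17 cells without KO-labelled mouse 1, 2 or 3 or WT-labelled mouse 10 or 11. Without KO-labelled mice 1 and 2 it was called in those 4 clusters, at -0.31 to -0.40, and not over all cells (-0.18, adjusted p = 0.167) or in Th17 cells (-0.24, adjusted p = 0.183). Within clusters, Mxi1 of this list fell in cytotoxic and Th17 cells, and Ddit4 in unnamed 3 and cycling cells. Genes called lower were 104 of 6601 in cytotoxic, 143 of 5558 in Th17, 226 of 4242 in unnamed 3 and 157 of 5376 in cycling cells. Of 12 genes linked to MYC and mTORC1, over all cells Slc3a2 rose (log2 fold change 0.16, adjusted p = 0.0469, edgeR) and Slc1a5, a glutamine transporter, fell (-0.26, adjusted p = 0.00125). In cycling cells Slc1a5, Odc1 and Slc3a2 were called, 2 higher and 1 lower, where 5.36% of genes were called. Odc1 fell in recirculating cells, where 3.3% of genes did. The KO effect on Slc3a2 differed between clusters in limma's F test (adjusted p = 0.00707), as did that on Odc1 of the same list (5.0e-04), where 6.51% of genes passed. By edgeR's test between clusters Slc3a2 had an adjusted p of 0.094 and Odc1 0.00516. Of 7 pentose phosphate genes, Pgls fell (-0.25, adjusted p = 0.00427, edgeR) and 0 rose. Slc1a5 and Pgls were called in 12 of 12 refits with a mouse left out, and Slc3a2 in 4 of 12, those without KO-labelled mouse 4 or 6 or WT-labelled mouse 11 or 12. Without KO-labelled mice 1 and 2, Slc1a5 and Pgls were still called, and Gapdh (adjusted p = 0.058, edgeR), Slc2a3, Txnip and Slc3a2 were not.

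Of the markers of cells that the sort should not hold, 5 lists had a gene in the table. The summed level of 2 of them, CD8 and NK markers and B and plasma cell markers, was lower in every KO-labelled than in any WT-labelled mouse, and the ranges of the other 3 overlapped. None of the 2 erythroid markers was in the table. Myeloid markers (4 of 6 in the table) summed to a median of 10.6 CPM in KO-labelled mice (8.34 to 16.4), against 11.97 CPM in WT-labelled mice (8.47 to 16.0). The 1 stroma and endothelium marker in the table (of 3) had a median of 41.3 CPM in KO-labelled mice (36.1 to 51.4), against 46.0 CPM in WT-labelled mice (29.0 to 55.2). Epithelial markers (4 of 4) had 9.78 CPM in KO-labelled mice (5.02 to 11.2), against 17.5 CPM in WT-labelled mice (9.05 to 22.9).

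The summed CD8 and NK markers (3 of 4) had a median of 6.81 CPM in KO-labelled mice (4.51 to 11.9), against 54.1 CPM in WT-labelled mice (15.3 to 58.9). Cd8a had 1029 UMIs in the cytotoxic cluster, or 103.3 CPM, 20.2 CPM in cycling cells and 0.501 to 3.77 CPM in the other clusters. Cd8b1 had 3.31 CPM and the NK marker Klrb1c 2.51 CPM in the cytotoxic cluster, and Ncr1 was not in the table. The cytotoxic cluster made up a mean of 8.63% of cells in KO-labelled mice and 33.2% in WT-labelled mice. B and plasma cell markers (2 of 5) had a median of 3.93 CPM in KO-labelled mice (1.65 to 10.2), against 20.04 CPM in WT-labelled mice (13.0 to 27.3). Igkc had 46.6 CPM in the cytotoxic cluster, 68.4 CPM in the regulatory cluster and at most 3.98 CPM in the others, and Cd79a, Ms4a1 and Jchain were not in the table. The part of these markers and of the cytotoxic share in the results over all cells was not tested.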

How the data were processed

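The authors deposited raw UMI counts per gene and cell with a per-cell annotation of mouse, genotype and cluster. It also holds, as deposited, the percent of each cell's UMIs that were mitochondrial, which entered no test. The tools Cell Ranger (3.1.0) and Seurat (3.1.5) and the builds GRCm38 and mm10 are named, per the submitters' processing notes. The deposited genotype matched the hashtag table in all 18860 cells. How the authors filtered cells was not stated there, and no doublet caller was run.

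UMI sums of each mouse, the replicate, over all cells and in each cluster went into edgeR 4.0.16 under R 4.3.3 (two-sided quasi-likelihood F test, TMM, filterByExpr, Benjamini-Hochberg over all genes tested). CPM was scaled by the sum of UMIs, without TMM. Whether each mouse had its own T cell donor is not stated, so p-values measure the spread between mice.

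The difference between clusters used limma 3.58.1 (voom, mouse as a block). On data simulated with a fixed dispersion, this test made more false calls than its threshold allows, and the edgeR test did not. The simulated clusters of a mouse were drawn independently, so the simulation lacks the correlation within a mouse that the block models. It therefore cannot tell which test is better calibrated on the real data. A stricter filter (a mean of at least 20 UMIs) and an edgeR test without the block were therefore added after the first result was seen. That result, from filterByExpr, is the one reported, and the additions are alternatives.

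The members, gene lists, marker lists and alternatives were chosen with earlier results of these data known. Named genes are all 10 members, list genes past the threshold over all cells (at most 4 per direction), and the 6 genes most like the sum (Pearson, mean log2 CPM of at least 5). Odc1, Mxi1 and Ddit4 are list genes named for calls within or between clusters. Background percentages are given for the directions in which members were called. Promoter windows came from RefSeq (GRCm38.p6) and gene positions from GENCODE. Alternatives were DESeq2 1.42.0 size factors and test, no filter, equal cells per mouse, no cycling cells, at least 50 cells, and mice left out. A further alternative weighted each cluster by its share of the cells of all mice, the same in every mouse. Refits of list genes with mice left out were added after their values were seen.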

Additional observations from a re-analysis of the deposited data

Results flagged for a closer look

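Among 150 sets of mice (1 gene, 1 cluster or all cells, 1 genotype), 12 held a mouse far from its group by Dixon's criterion, where chance gives about 1 in 20. WT-labelled mouse 10 was high for Pkm over all cells (764.8 CPM, others 652.7 to 682.3) and for Slc2a1 in Th17 cells (86.7 CPM, others 51.5 to 61.8). In cycling cells the same mouse was high for Pgk1 (441.9 CPM), Eno1 (446.5 CPM) and Ldha (1257 CPM).

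In recirculating cells, KO-labelled mouse 1 was high for Hk2 (52.9 CPM, others 16.7 to 29.4) and KO-labelled mouse 2 was low for Pgk1 (223.4 CPM). WT-labelled mouse 9 was low for Pgk1 (240.4 CPM) and WT-labelled mouse 8 for Pfkp (132.2 CPM) in the same cluster. In Th17 cells, KO-labelled mouse 2 was low for Slc2a1 (15.7 CPM, others 50.6 to 70.6) and KO-labelled mouse 3 for Ldha (792 CPM, others 1076 to 1223). That Slc2a1 value is only 2 UMIs from 44 cells. WT-labelled mouse 11 was high for Tpi1 in cytotoxic cells (135.3 CPM, others 72.3 to 85.0).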

How the results depend on the processing

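No paired analysis was possible because the mice carry different numbers in each genotype. Without KO-labelled mice 1 and 2, members called dropped to 1 of 5 over all cells (Tpi1), 0 of 2 in recirculating, 1 of 2 in unnamed 1, 0 of 1 in cytotoxic, 1 of 2 in unnamed 3 and 0 of 1 in Th17 cells; the cause was not tested, and the group was smaller. Calls over all genes fell too, to 7.69% of genes tested without them, against 14.2% with them, over all cells, and to 3.3% against 5.09% in Th17 cells. The shares were 4.35% against 5.48% in recirculating, 3.16% against 4.65% in unnamed 1, 1.86% against 2.89% in cytotoxic and 5.0% against 8.42% in unnamed 3 cells. Log2 fold changes without and with those mice were -0.65 and -0.71 for Tpi1 in unnamed 3, -0.38 and -0.45 for Pfkp in cytotoxic, and 0.73 and 1.02 for Hk2 in Th17 cells. With no filter on low counts, 1 gene was called in cycling cells (Tpi1). Over all genes, 155 were then higher and 168 lower of 11893 tested, against 131 and 157 of 5376 with the filter. In the test between clusters, the added filter on a mean of 20 UMIs called 1 gene (Ldha), and the other 3 alternatives called 0.

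Leaving out each mouse in turn gave 4 to 7 members called over all cells, 0 to 2 in recirculating, 2 to 3 in unnamed 1, 0 to 1 in cytotoxic, 1 to 3 in unnamed 3, 1 in Th17, 0 to 1 in cycling and 0 in regulatory cells. Calls over all genes moved between these refits too. The 7 came without KO-labelled mouse 6, where 938 genes were higher and 929 lower of 9929 tested, against 694 and 711 of 9861 with all mice. Without KO-labelled mouse 1, which gave 4, they were 526 and 547 of 9935. Recirculating cells gave 0 without WT-labelled mouse 7, with 145 and 220 of 7657, against 165 and 251 of 7596. Unnamed 1 cells gave 3 without KO-labelled mouse 4, with 150 and 208 of 5502, against 104 and 172 of 5933. Cytotoxic cells gave 0 without KO-labelled mouse 1, with 85 and 91 of 7234, against 87 and 104 of 6601. Unnamed 3 cells had 90 and 186 of 3946 without KO-labelled mouse 2 and 155 and 242 of 3944 without mouse 6. With all mice they had 131 and 226 of 4242. Slc2a1 over all cells was 0.008 without cycling cells, against -0.03 with them, and ran from -0.068 to 0.022 (0.011 without KO-labelled mouse 6) over the mice left out, never called. A minimum of 50 cells changed the mice only in Th17 cells, and could not be run in regulatory cells, where 2 KO-labelled and 0 WT-labelled mice had that many. Counting depth limited Hk2 most, with 1809 UMIs in all.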
